A study of Mus musculus with 3 samples.

Results

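The transcription factors Irf7, Irf9, Irf1, Irf3 and Stat2, the ubiquitin-like protein Isg15 with its protease Usp18, and the RNA sensors Ifih1 and Dhx58 are 9 genes that sense viral RNA or carry, amplify and restrain the interferon response. They were found by symbol, 9 of 9, among the 17992 genes counted in 3 mouse brain libraries. The genes were chosen by their role in the pathway and on counts of these same libraries, since an earlier look had shown low interferon-stimulated genes in vehicle against sham, so all levels and ratios below are descriptions. Each library stood for 1 group of adult wild-type C57BL/6 mice. The AGNHW group received the compound Chinese medicine Angong Niuhuang Wan at 3 mg per g per day. The vehicle group was the model in which the middle cerebral artery, a main artery of the forebrain, is occluded. The sham group was the operated control, and vehicle and sham are both labelled as untreated. Occlusion is written in the labels for vehicle mice only, so whether AGNHW mice were occluded is not stated. The sources used here do not give the brain region, the time after surgery or how many mice a library came from.

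Cells detect viral or misplaced nucleic acid with sensors such as the helicase encoded by Ifih1, which signals through Irf3 and Irf7 to switch on interferon genes. The related helicase encoded by Dhx58 lacks the signalling domains and tunes the activity of the first. Secreted interferon binds receptors on the same or other cells, and Jak kinases then activate Stat2, which joins Irf9 in a complex that binds interferon-stimulated response elements in promoters. Irf7, Isg15, Usp18 and the sensors are themselves targets of that complex, so their transcripts are used as a readout of interferon signalling. In the brain they are known to rise in microglia and other glia during infection and injury.

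To show which of these promoters carry the response element, promoter windows of 250 bases before and 50 after the transcription start were taken from RefSeq (build GRCm38.p6), which held windows for 7 of the 9 genes, 1 each for 5 genes and 2 each for Irf9 and Irf1; Usp18 and Dhx58 had none. The element was searched as GAAANNGAAA on both strands and was present in 3.44% of all 32851 windows. It occurred in the windows of Isg15, Stat2 and Ifih1. The gamma-activated element, searched as TTCNNNGAA, which reads the same on both strands, was present in 8.30% of windows and occurred in 1 window of Irf1. Irf7, Irf9 and Irf3 had neither motif. The capitals below mark the matches.

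Isg15 (chr4:156200819-156201068, strand -, the 250 bases before the start, with 3 overlapping matches between -78 and -57): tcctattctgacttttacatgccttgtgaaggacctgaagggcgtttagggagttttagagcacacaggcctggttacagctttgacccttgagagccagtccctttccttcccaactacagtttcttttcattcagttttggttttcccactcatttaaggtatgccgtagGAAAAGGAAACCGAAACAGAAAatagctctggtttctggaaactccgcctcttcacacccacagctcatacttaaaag
Stat2 (chr10:128270248-128270497, strand +, the 250 bases before the start, match from -222 to -213): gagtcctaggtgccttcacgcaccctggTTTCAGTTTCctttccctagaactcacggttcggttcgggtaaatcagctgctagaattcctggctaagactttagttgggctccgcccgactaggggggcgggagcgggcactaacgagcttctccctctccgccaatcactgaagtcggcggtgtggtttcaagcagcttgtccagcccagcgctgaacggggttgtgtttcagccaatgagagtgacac
Ifih1 (chr2:62646206-62646235, strand -, the 30 bases from 21 to 50 after the start, match from 33 to 42): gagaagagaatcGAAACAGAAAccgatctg
Irf1 (chr11:53769764-53770013, strand +, the 250 bases before the start, gamma-activated element from -90 to -82): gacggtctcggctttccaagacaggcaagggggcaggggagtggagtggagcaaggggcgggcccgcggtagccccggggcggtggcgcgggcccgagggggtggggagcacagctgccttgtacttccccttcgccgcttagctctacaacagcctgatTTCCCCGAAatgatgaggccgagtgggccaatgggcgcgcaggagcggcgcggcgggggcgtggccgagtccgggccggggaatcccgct
Irf7 (chr7:141266425-141266674, strand -, the 250 bases before the start, shown without a match because the ratios of this gene to sham were among the lowest of the 9): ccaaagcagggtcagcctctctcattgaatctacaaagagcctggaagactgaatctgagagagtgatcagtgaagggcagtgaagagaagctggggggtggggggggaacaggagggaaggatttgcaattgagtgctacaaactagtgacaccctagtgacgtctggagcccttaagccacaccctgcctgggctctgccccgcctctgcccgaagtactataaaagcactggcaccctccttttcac

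These matches are runs of letters, not shown to be bound, and a window without one says nothing about more distant sequence.

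The libraries held 18184691 (AGNHW), 15718594 (vehicle) and 18286151 (sham) counts. Levels are given as CPM, that is counts scaled to a common library size, with trimmed-mean (TMM) scaling factors. With 1 library per group no difference has a replicate check and no test of the conditions was possible. A gene is called lower or higher when its ratio was at least 1.5 either way, its mean over the 3 libraries was at least 1 CPM and the 95% counting interval of the ratio excluded 1. Such intervals, printed in parentheses after each ratio, cover counting error only. Brain markers were abundant in every library, with summed levels of 10 neuronal genes of 6934 (AGNHW), 7163 (vehicle) and 7242 CPM (sham). The vehicle library stood apart by its pituitary transcripts, with 4 counts of growth hormone (Gh) in AGNHW, 39065 in vehicle and 0 in sham. Red cell genes were higher in the vehicle library too, 5 of 6 against sham, where 8.66% of all genes compared were higher. In AGNHW against vehicle 5 of 6 were lower, against 2.56% of all genes.

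**Figure D1:**
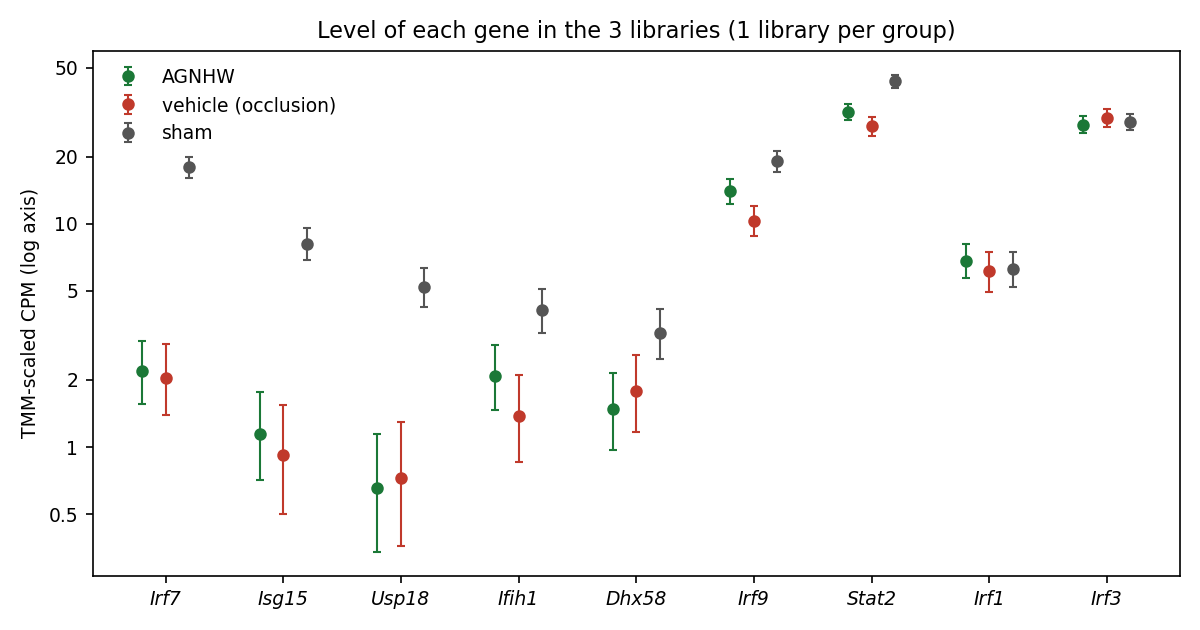
Scaled CPM of each of the 9 genes on a log axis, with 1 point per library (AGNHW, vehicle and sham from left to right) and bars for the 95% exact Poisson interval of the count. For Irf7, Isg15 and Usp18 the AGNHW and vehicle points lie between 0.657 and 2.19 CPM and the sham points between 5.21 and 17.9 CPM, while the 3 points of Irf1 and of Irf3 lie close together.

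In vehicle against sham, 7 of the 9 genes were lower and 0 higher, against 14.2% of all 15558 genes compared lower and 8.66% higher. In AGNHW against sham, 5 of 9 were lower and 0 higher, against 5.47% and 3.32% of all genes. Between AGNHW and vehicle 0 of 9 passed in either direction, where 4.01% of all genes were higher and 2.56% lower. The lowest ratios to sham belonged to Irf7, Isg15 and Usp18, and the ratios of Irf1 and Irf3 were inside the 1.5-fold limit in every comparison. The comparisons with sham share the sham library, so they are not independent of each other. All 9 genes passed the minimum of 1 CPM, but Usp18 did so only through sham, and Isg15 was under it in vehicle. In whole tissue, fewer cells of a type and less RNA per cell cannot be told apart.

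**Figure D2:**
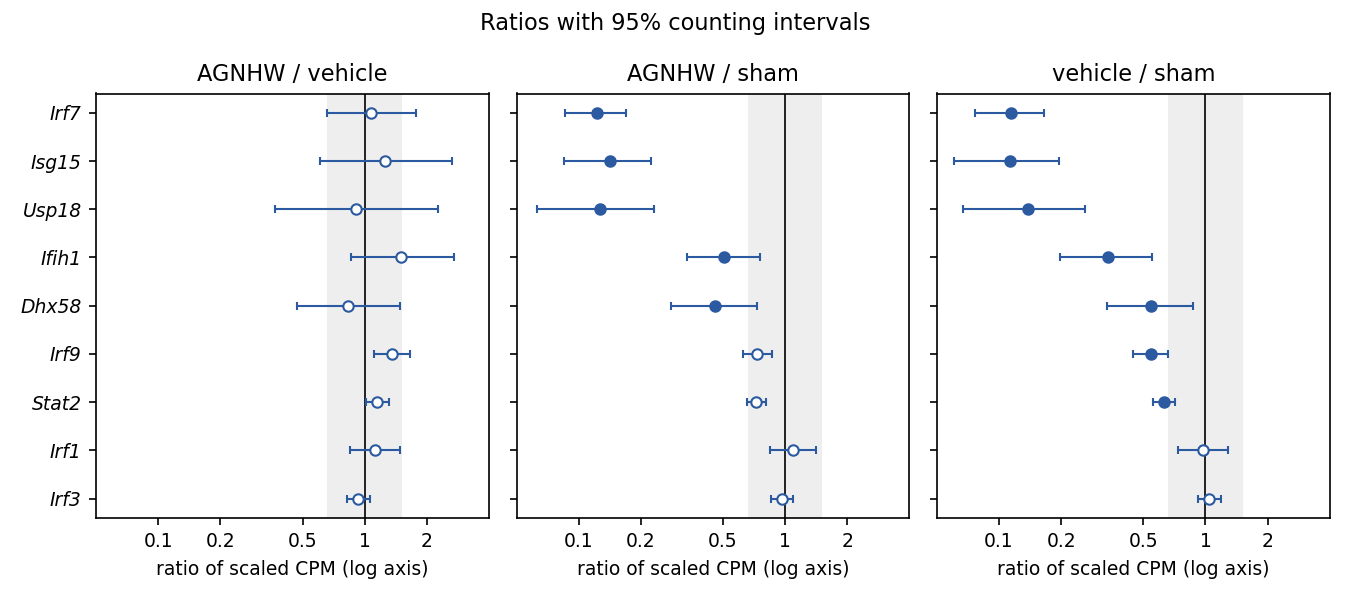
Ratios of scaled CPM on a log axis with 95% counting intervals, for AGNHW over vehicle, AGNHW over sham and vehicle over sham; filled points passed the size rule and the grey band spans 1.5-fold either way. No point is filled in AGNHW over vehicle, 5 are in AGNHW over sham and 7 in vehicle over sham.

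Irf7, the factor that amplifies the interferon response once it has itself been induced, had 40 counts (2.19 CPM) in AGNHW, 31 counts (2.04 CPM) in vehicle and 337 counts (17.9 CPM) in sham. Sham was the high library, and AGNHW and vehicle did not differ beyond counting error. The ratio of vehicle to sham was 0.114 (0.0761 to 0.165) and that of AGNHW to sham 0.122 (0.0858 to 0.170). Only 0.0257% of all genes compared had a lower log2 ratio in vehicle against sham. AGNHW against vehicle gave 1.07 (0.656 to 1.78), an interval that still allows a 1.5-fold difference in either direction.

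Irf3, which is present before any stimulus and is switched on by phosphorylation, had 507 counts (27.8 CPM) in AGNHW, 454 counts (29.8 CPM) in vehicle and 538 counts (28.6 CPM) in sham. The 3 levels lay within each other's counting intervals. Its ratios were 1.04 (0.919 to 1.19) for vehicle to sham, 0.971 (0.858 to 1.10) for AGNHW to sham and 0.930 (0.818 to 1.06) for AGNHW to vehicle. After correction of the ratios for transcript length and GC content they were 0.786 (0.692 to 0.892), 0.836 (0.739 to 0.945) and 1.06 (0.935 to 1.21) in the same order. All were inside the 1.5-fold limit, but both corrected intervals against sham excluded 1, with Irf3 below sham. Irf3 was taken as a denominator within each library after its uncorrected values were seen to differ little. Counts per 100 of Irf3 thus restate the uncorrected ratios and are no separate support for them. Irf7 had 7.89 counts per 100 counts of Irf3 in AGNHW (5.57 to 10.9), 6.83 in vehicle (4.58 to 9.83) and 62.6 in sham (54.5 to 71.9).

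Irf1, a factor best known as a target of interferon gamma, had 125 counts (6.84 CPM) in AGNHW, 93 counts (6.11 CPM) in vehicle and 118 counts (6.27 CPM) in sham. No library was high or low beyond counting error. The ratio of vehicle to sham was 0.975 (0.735 to 1.29), that of AGNHW to sham 1.09 (0.842 to 1.42) and that of AGNHW to vehicle 1.12 (0.849 to 1.48), so that each interval excludes a 1.5-fold difference. After the length and GC correction the intervals were 0.601 to 1.06 for vehicle to sham and 0.927 to 1.62 for AGNHW to vehicle, both of which allow 1.5-fold, and 0.752 to 1.26 for AGNHW to sham.

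Stat2 and Irf9 encode partners in the interferon-activated complex. Stat2 had 576 counts (31.5 CPM) in AGNHW, 416 counts (27.4 CPM) in vehicle and 818 counts (43.5 CPM) in sham. Sham was the highest library and vehicle the lowest. The ratio was 0.629 (0.558 to 0.709) for vehicle to sham and 0.726 (0.651 to 0.808) for AGNHW to sham, the last inside the 1.5-fold limit.

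Irf9 had 255 counts (14.0 CPM) in AGNHW, 157 counts (10.3 CPM) in vehicle and 358 counts (19.0 CPM) in sham. The order of the libraries was the same as for Stat2. The ratio was 0.543 (0.447 to 0.656) for vehicle to sham and 0.734 (0.623 to 0.864) for AGNHW to sham. Among the 9 genes these were the only ones whose AGNHW to vehicle interval excluded 1, at 1.35 (1.10 to 1.66) for Irf9 and 1.15 (1.01 to 1.31) for Stat2, and neither reached 1.5-fold. Irf9 per 100 counts of Stat2 was 44.3 in AGNHW (38.1 to 51.4), 37.7 in vehicle (31.2 to 45.5) and 43.8 in sham (38.5 to 49.6), with intervals that overlap across the libraries.

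Isg15 encodes a small ubiquitin-like protein that is attached to other proteins or secreted. It had 21 counts (1.15 CPM) in AGNHW, 14 counts (0.920 CPM) in vehicle and 153 counts (8.13 CPM) in sham. As for Irf7, sham alone was high. The ratio was 0.113 (0.0605 to 0.196) for vehicle to sham, 0.141 (0.0851 to 0.224) for AGNHW to sham and 1.25 (0.606 to 2.66) for AGNHW to vehicle.

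Usp18, the protease that removes Isg15 from its targets and also damps the type I interferon receptor, had 12 counts (0.657 CPM) in AGNHW, 11 counts (0.723 CPM) in vehicle and 98 counts (5.21 CPM) in sham. Sham was again the high library. Its ratio was 0.139 (0.0671 to 0.260) for vehicle to sham, 0.126 (0.0630 to 0.231) for AGNHW to sham and 0.909 (0.367 to 2.27) for AGNHW to vehicle. With 12 counts in AGNHW and 11 in vehicle, the interval allows a level up to 2.72-fold lower or 2.27-fold higher in AGNHW, so a smaller difference was not detectable at this depth.

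The sensors differed less. Ifih1, which encodes MDA5, a sensor of long double-stranded RNA, had 38 counts (2.08 CPM) in AGNHW, 21 counts (1.38 CPM) in vehicle and 77 counts (4.09 CPM) in sham. Sham was high and the intervals of AGNHW and vehicle overlapped. The ratio was 0.337 (0.198 to 0.553) for vehicle to sham and 0.508 (0.335 to 0.759) for AGNHW to sham. AGNHW to vehicle was 1.51 (0.862 to 2.70), which passed the fold but not the interval.

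Dhx58, which encodes LGP2, a relative of MDA5 that lacks the signalling domains and tunes its activity, had 27 counts in AGNHW (1.48 CPM), 27 counts in vehicle (1.78 CPM) and 61 counts in sham (3.24 CPM). It too was high in sham only. The ratio was 0.548 (0.335 to 0.875) for vehicle to sham, 0.456 (0.279 to 0.729) for AGNHW to sham and 0.833 (0.470 to 1.48) for AGNHW to vehicle.

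**Figure D3:**
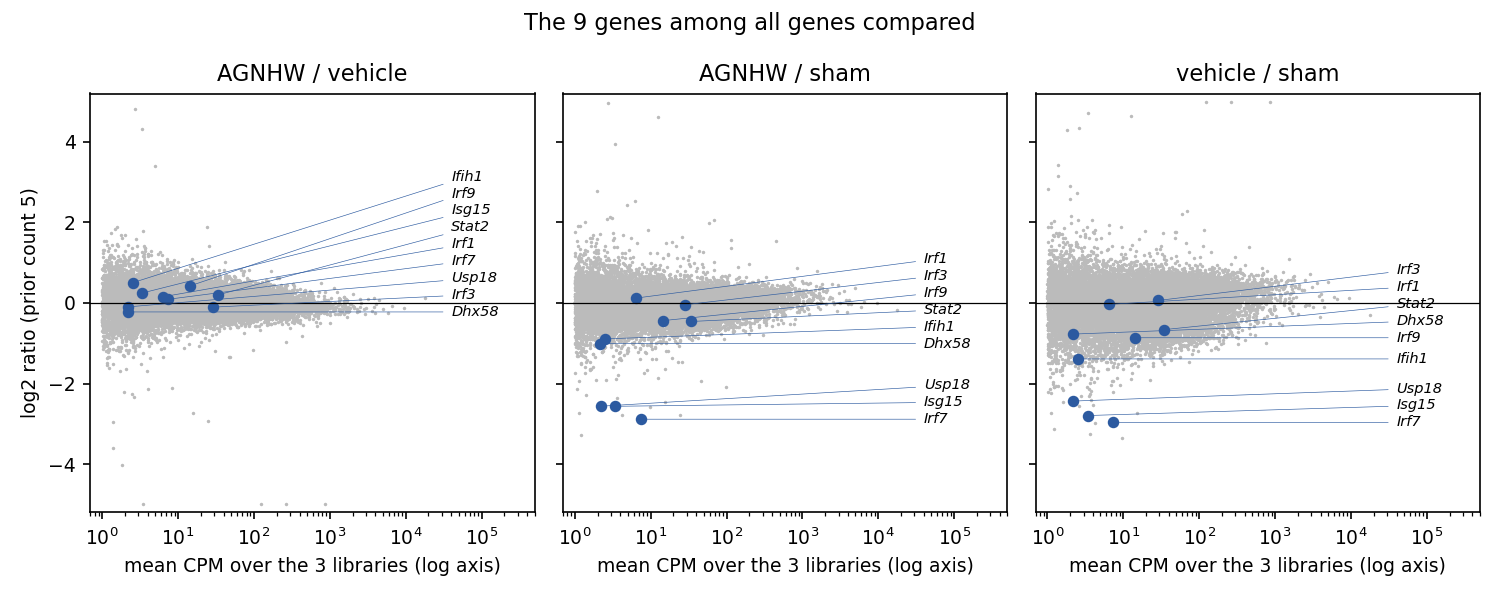
Log2 ratio (prior count 5) of all 15558 genes compared (grey) against their mean CPM on a log axis, with the 9 genes in blue and values beyond 5 drawn at the edge. Irf7, Isg15 and Usp18 lie between -2.96 and -2.44 in vehicle over sham and between -2.89 and -2.56 in AGNHW over sham, below nearly all genes, whereas all 9 genes lie between -0.22 and 0.50 in AGNHW over vehicle.

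The 9 log2 ratios had a median of -0.86 in vehicle against sham (range -2.96 to 0.06), of -0.89 in AGNHW against sham (range -2.89 to 0.12) and of 0.16 in AGNHW against vehicle (range -0.22 to 0.50). The median of all genes compared was 0.01 in vehicle against sham and closer to 0 in the other comparisons. A trend on transcript length and GC content took up 34.6% of the variance of log2 ratios in vehicle against sham, 21.6% in AGNHW against sham and 16.8% in AGNHW against vehicle. After correction for that trend the counts of lower genes among the 9 were again 7, 5 and 0, with medians of -0.91, -0.64 and 0.20, while the share of all genes that were lower was 7.31%, 3.34% and 1.71%.

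Counts per 100 of Irf3 describe the makeup of each library, with the limit given above for that denominator. Isg15 had 4.14 counts per 100 of Irf3 in AGNHW (2.54 to 6.40), 3.08 in vehicle (1.67 to 5.23) and 28.4 in sham (23.6 to 34.1). Usp18 had 2.37 in AGNHW (1.21 to 4.17), 2.42 in vehicle (1.201 to 4.38) and 18.2 in sham (14.5 to 22.6). For both, the sham interval lay far above the other intervals, which overlapped each other. Ifih1 had 7.50 counts per 100 of Irf3 in AGNHW (5.24 to 10.4), 4.63 in vehicle (2.84 to 7.16) and 14.3 in sham (11.1 to 18.2). Dhx58 had 5.33 in AGNHW (3.47 to 7.84), 5.95 in vehicle (3.88 to 8.77) and 11.3 in sham (8.55 to 14.8). The sensors' sham intervals thus stood closer to those of AGNHW and vehicle, and for Dhx58 the vehicle and sham intervals overlapped. Stat2 had 114 counts per 100 of Irf3 in AGNHW (101 to 128), 91.6 in vehicle (80.02 to 105) and 152 in sham (136 to 170). Irf9 had 50.3 in AGNHW (43.1 to 58.6), 34.6 in vehicle (28.7 to 41.6) and 66.5 in sham (58.05 to 76.2), with AGNHW and sham intervals that overlapped. Irf1 had 24.7 in AGNHW (20.1 to 30.04), 20.5 in vehicle (16.2 to 25.7) and 21.9 in sham (17.8 to 26.8), all 3 overlapping.

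Per kilobase of the longest annotated transcript, Irf3 had the highest level in every library, at 13.7 CPM per kb in AGNHW, 14.7 in vehicle and 14.1 in sham. The longest transcript, of any type, need not be the one expressed, for example 3.24 kb for Irf7 and 3.87 kb for Irf9. Counting intervals do not cover an error in length, so the order between genes depends on this choice. In AGNHW Irf3 was followed by Stat2 (7.17 CPM per kb), Irf9 (3.61) and Irf1 (3.20), and Irf9 and Irf1 did not differ beyond counting error. The order in vehicle was the same except that Irf1 (2.86) and Irf9 (2.67) changed places within their intervals. In sham, Isg15 came second at 10.8 CPM per kb, level with Stat2 at 9.89 within counting error, and Irf7 at 5.53 and Irf9 at 4.92 formed the next pair. Isg15 stood below Irf1 and Irf9 in both other libraries, at 1.52 CPM per kb in AGNHW and 1.22 in vehicle. The lowest places held Irf7, Dhx58, Ifih1 and Usp18 in AGNHW (0.676 to 0.371 CPM per kb) and the same genes in vehicle (0.736 to 0.252 CPM per kb), where neighbours did not differ beyond counting error, and Dhx58 (1.34) and Ifih1 (0.748) in sham, which did.

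Genes around these 9 in the pathway were taken from 7 lists, whose counts are to be read against the shares of all genes. These were 14.2% lower and 8.66% higher in vehicle against sham, and 5.47% and 3.32% in AGNHW against sham. In AGNHW against vehicle they were 2.56% lower and 4.01% higher. After the length and GC correction they were 7.31% and 4.52%, 3.34% and 2.58%, and 1.71% and 3.03% in the same order. Of 11 listed interferon genes, 0 were among the counted genes; genes whose counts summed to under 21 over the libraries had been left out of the counts. Of 23 antiviral effectors compared, 19 were lower and 0 higher in vehicle against sham, with a median log2 ratio of -1.49. In AGNHW against sham 17 were lower (0 higher) and the median was -1.20. Oas1a, Oas1b, Oas2, Rsad2, Ifi44 and Trim30a were under 1 CPM in AGNHW and in vehicle, and passed the minimum only through sham. All of them are among the lower genes in both comparisons, so these numbers and medians follow in part from the filter. In AGNHW against vehicle 5 were higher and 0 lower, among them Oasl2, of the oligoadenylate synthetase family, at 1.83 (1.18 to 2.89) and Ifit2, an RNA-binding inhibitor of translation, at 1.59 (1.15 to 2.23). After the length and GC correction 21 effectors were lower in vehicle against sham, 18 were lower in AGNHW against sham and 3 were higher in AGNHW against vehicle, and Ifit2 was no longer among those 3.

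The genes listed for the attachment of Isg15 were mostly lower as well. Of 6 listed genes, 5 were lower in vehicle against sham and 4 in AGNHW against sham, and 1 was higher in AGNHW against vehicle; after the length and GC correction these were 3, 3 and 1. Trim25 was counted in each of these numbers, is the 1 higher gene, and is counted again among the sensors and adaptors. Herc6, the main ligase for Isg15 in mouse, had 38 counts in AGNHW, 29 in vehicle and 118 in sham, a ratio of 0.304 (0.195 to 0.460) for vehicle to sham. The activating enzyme Uba7 had 50 counts in AGNHW, 55 in vehicle and 133 in sham, a ratio of 0.512 (0.367 to 0.706). The conjugating enzyme Ube2l6 did not pass, at 0.863 (0.667 to 1.11). Herc3 and Herc4, listed beside Herc6 and not shown here to attach Isg15, were lower in vehicle at 0.588 (0.547 to 0.632) and 0.596 (0.501 to 0.708). Herc4 was also lower in AGNHW against sham, and neither gene passed after the correction.

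Of 12 sensors and adaptors compared, 4 were lower and 1 higher in vehicle against sham, and 2 lower and 0 higher in AGNHW against sham. Ddx58, which encodes the RNA sensor RIG-I, had 68 counts in AGNHW, 45 in vehicle and 158 in sham, and was lower in vehicle at 0.352 (0.247 to 0.493) and in AGNHW at 0.443 (0.329 to 0.593). Mavs, the mitochondrial adaptor through which RIG-I and MDA5 signal, was higher in vehicle at 1.57 (1.25 to 1.98), and did not pass after the length and GC correction. In AGNHW against vehicle 3 sensors or adaptors were higher and 1 lower, where 4.01% of all genes were higher and 2.56% lower. Trim25, a ubiquitin ligase that acts on RIG-I and Isg15, was higher at 1.65 (1.16 to 2.37), and the DNA sensor Cgas, with 29 counts in AGNHW and 11 in vehicle, at 2.2 (1.06 to 4.87). Sting1, the adaptor below Cgas, was higher at 1.56 (1.05 to 2.35), and the RNA receptor Tlr7 lower at 0.534 (0.310 to 0.905). Of these 4, Trim25 and Tlr7 passed after the correction.

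Calls among receptors, kinases and negative regulators are to be read against the 14.2% of all genes that were lower and the 8.66% that were higher in vehicle against sham. Of 8 receptor and Jak genes compared, 1 was lower in vehicle against sham, Jak2 at 0.615 (0.530 to 0.713), and 0 passed in the other comparisons. The receptor chains Ifnar1 and Ifnar2 had ratios of vehicle to sham of 0.826 (0.736 to 0.927) and 1.10 (0.919 to 1.32). Of 12 signalling kinases and their partners, 3 were lower in vehicle against sham (Tank, Azi2 and Chuk, between 0.571 and 0.665) and 0 in AGNHW against sham, and Irak4 was higher in AGNHW against vehicle at 1.83 (1.13 to 3.03). None of Jak2, Tank, Azi2 and Chuk passed after the correction. Of 14 negative regulators, Tnfaip3, an inhibitor of NF-kappaB, was lower in vehicle against sham at 0.605 (0.410 to 0.880). Socs3, which blocks Jak signalling, was higher at 1.94 (1.43 to 2.65) in vehicle against sham and at 1.70 (1.26 to 2.31) in AGNHW against sham. After the correction only the first of these Socs3 calls remained, and Tnfaip3 did not pass.

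**Figure D4:**
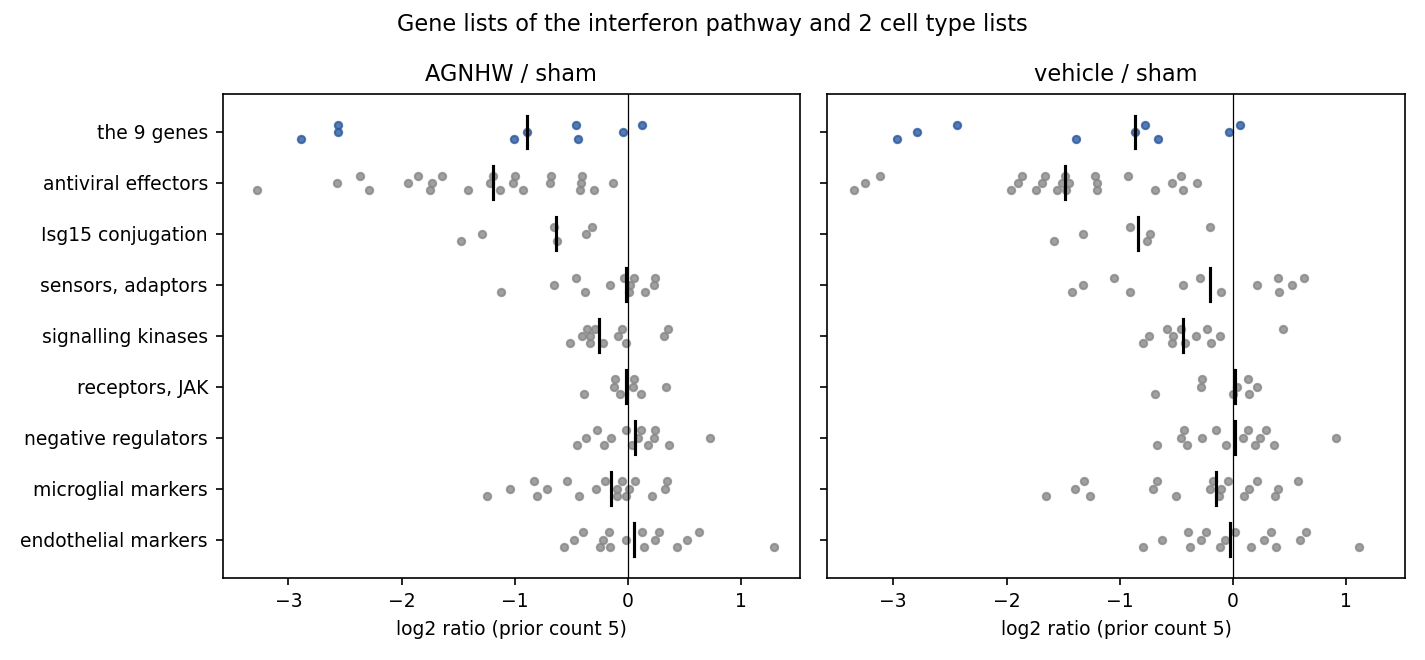
Log2 ratio (prior count 5) of each gene compared, by list, in AGNHW over sham and vehicle over sham, with a black bar at each list's median; the 9 genes are in blue. The antiviral effectors and the Isg15 conjugation genes lie mostly below 0 like 8 of the 9 genes, with medians of -1.20 and -0.64 in AGNHW over sham and -1.49 and -0.84 in vehicle over sham, while receptor and negative regulator medians lie between -0.01 and 0.06.

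Markers of cell types that use this pathway were counted by the same rule, with the shares of all genes again 14.2% lower and 8.66% higher in vehicle against sham, and 5.47% lower and 3.32% higher in AGNHW against sham. Of 18 microglial markers, 6 were lower and 0 higher in vehicle against sham, and 5 lower and 0 higher in AGNHW against sham. Their summed level was 463 CPM in AGNHW, 457 CPM in vehicle and 503 CPM in sham, and none was at 0. Csf1r, C1qa, C1qc and C1qb, which did not pass, were the largest parts of the sum, at 77.8, 75.2, 58.6 and 52.6 CPM in vehicle. After the length and GC correction 6 and 5 markers were again lower, and the median log2 ratio in vehicle against sham went from -0.15 to -0.44. P2ry12, a purine receptor of resting microglia, had 145 counts in AGNHW, 78 in vehicle and 314 in sham, while Csf1r, the growth factor receptor that microglia depend on, had a ratio of vehicle to sham of 0.918 (0.851 to 0.991). In vehicle against sham, before correction, the endothelial and astrocyte numbers of lower genes were near the share of all genes. Of 16 endothelial markers, 2 were lower and 3 higher in vehicle against sham, with summed levels of 605 CPM in AGNHW, 637 CPM in vehicle and 544 CPM in sham. Of 10 astrocyte markers 2 were lower and 1 higher in vehicle against sham, and their sums were 3712, 3669 and 3858 CPM in AGNHW, vehicle and sham. In AGNHW against sham 2 astrocyte markers were lower and 0 higher, above the share of all genes. Gfap and Aqp4 were the lower ones each time, with ratios to sham of 0.553 and 0.347 in vehicle and 0.576 and 0.614 in AGNHW. After the length and GC correction 2 stayed lower in vehicle against sham and 1 in AGNHW against sham. Of 7 leukocyte markers compared, 2 were lower (Ptprc and Cd52) and 2 higher (Cd4 and S100a9) in vehicle against sham. The sums over 9 counted genes were 139, 163 and 126 CPM in AGNHW, vehicle and sham, of which Coro1a alone made up 98.6, 127 and 90.9 CPM. Siglech is counted both here and among the microglial markers. S100a9 had 49 counts in AGNHW, 47 in vehicle and 3 in sham, and S100a8 had 24, 25 and 0 in the same order. The part of these cell types in the levels of the 9 genes was not tested.

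The genes nearest to Irf7 by distance in the log2 ratios of vehicle and of AGNHW to sham, among 12756 candidates and over 3 libraries, were Gbp3, Phf11d, Ifi44, Oasl2 and Ifit1, at distances of 0.10 to 0.59. Gbp3, an interferon-inducible GTPase, had 23 counts in AGNHW, 16 in vehicle and 194 in sham. Phf11d had 4 counts in AGNHW, 3 in vehicle and 56 in sham, and Ifi44 had 2, 2 and 64. Both were under 1 CPM in AGNHW and in vehicle and became candidates only through sham. Their plain ratios of vehicle to sham were 0.0663 for Phf11d and 0.0387 for Ifi44, against 0.114 for Irf7. The prior count shrinks the log2 ratios of such low counts, so the closeness of Phf11d and Ifi44 to Irf7 follows in part from it. The nearest to Irf3 were Cabin1, Tmem80, Apip, Atg16l2 and Wdr70, all within 0.01. A pattern over 3 libraries has 2 free values, so closeness in it is a weak description.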

How the data were processed

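Total RNA from mouse brain was sequenced on the Illumina platform, 1 library per group, and the libraries were grouped by title. The authors deposited raw read counts per gene symbol. Bowtie2 2.2.3, TopHat2 2.0.12 and HTSeq 0.6.0 with build mm9 are named in the submitters' processing notes, without their order, settings or strand handling. Reads cannot be assigned with certainty where exons overlap. In GENCODE vM21, 6 of the 9 genes share between 1.19% and 4.44% of their exonic bases with another gene (Stat2, Isg15 and Ifih1 share none). The overlap of Irf9, 2.28% with Rnf31, is on the same strand, so strand would not resolve it. The other overlaps are on opposite strands.

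Counts were scaled with TMM factors of 1.00 (AGNHW), 0.968 (vehicle) and 1.03 (sham) from edgeR 4.0.16 in R 4.3.3. Ratios have exact conditional binomial 95% intervals (scipy 1.17.1), and log2 ratios a prior count of 5. A count of 0 allows up to 3 counts, which is 0.164 CPM in AGNHW, 0.197 in vehicle and 0.159 in sham. Intervals cover counting error only, and without molecular identifiers reads may be copies of 1 molecule. Alternatives were plain CPM, DESeq2 1.42.0 size factors, no filter, a prior count of 1, and a spline correction for length and GC content of the longest GENCODE transcript, which 97.9% of the genes had.

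All 9 genes are named. A list of further factors of the pathway is not reported here. From other lists, genes past the size rule or with the largest ratios were eligible, and Irf7 and Irf3 have their 5 nearest genes named among those with at least 50 counts in the highest library. C1qa, C1qb, C1qc, Coro1a, Csf1r, Ifnar1, Ifnar2, Siglech, Ube2l6 and, under 1 CPM, Oasl1, Mx1, Zbp1, Ddx60, Slfn8, Rnf125, Ifnlr1 and S100a8 were named after their values were seen. Members and lists were chosen with earlier results of these data known.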

Additional observations from a re-analysis of the deposited data

How the results depend on the processing

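In the main analysis 7 of the 9 genes were lower in vehicle against sham and 5 in AGNHW against sham, and 0 passed in AGNHW against vehicle. Plain CPM, DESeq2 size factors and the length and GC correction gave the same numbers. So did leaving out the filter on low values, but all 9 genes had already passed it, so that setting could not change their number. Their median log2 ratio ranged from -0.95 to -0.86 in vehicle against sham, from -0.96 to -0.64 in AGNHW against sham and from 0.16 to 0.21 in AGNHW against vehicle. Of 81 single ratios recomputed, 78 stayed within their counting intervals. Plain CPM and DESeq2 size factors gave 27 of these each. Both change all ratios of a comparison by a common small factor, so they could hardly leave the intervals. Under the length and GC correction 24 ratios stayed within, and the 3 that did not were those of Irf3. Over all genes, the correction gave 1114 lower and 689 higher in vehicle against sham, where the main analysis gave 2207 and 1348, and 509 lower in AGNHW against sham instead of 851. With plain CPM the numbers in vehicle against sham were 2836 lower and 890 higher, and in AGNHW against vehicle 309 lower and 808 higher instead of 398 and 624. No paired analysis was possible because each group had 1 library, and no library could be left out for the same reason. Counts of 11 to 27 limit Usp18, Isg15 and Dhx58 in AGNHW and vehicle.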

Other observations

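Of the counted genes of the pathway lists, 7 had a mean under 1 CPM and so entered no count. Sham was the highest library for 5 of them and vehicle for the other 2, Rnf125, with 7 counts in AGNHW, 12 in vehicle and 7 in sham, and Ifnlr1, with 9, 11 and 7 in the same order. Zbp1, a sensor of left-handed nucleic acid, had 7 counts in AGNHW, 2 in vehicle and 29 in sham. Mx1 had 6 counts in AGNHW, 5 in vehicle and 36 in sham. Oasl1 had 2 counts in AGNHW, 1 in vehicle and 30 in sham, and Ddx60 had 3, 2 and 21 in the same order. Slfn8 had 12 counts in AGNHW, 3 in vehicle and 32 in sham.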
